A study of Mus musculus with 13 samples.

Results

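Whole mouse blastocysts kept in culture to embryonic day 5.5 under 2 kinds of nutrient shortage were compared gene by gene. The medium was KSOM, a salt-based medium in which early mouse embryos are commonly grown. In reduced KSOM (n = 3 libraries) lactate and glucose, together with the amino acids lysine, isoleucine, arginine and leucine, were lowered. In depleted KSOM (n = 2 libraries) the protein and carbohydrate components were left out. The embryos of both groups were wild type on a B6D2F1 background, a mix of C57BL/6 and DBA2J. The 5 libraries were chosen by these labels out of 13 in the study, and no measured value entered the choice. The other 8 libraries, from blastocysts of day 5.5 after ovariectomy (OVX, n = 2), starvation (n = 2) or ovariectomy with knockout of Nprl2 and Tsc2 by guide RNAs (n = 2), and from E4.5 blastocysts under a normal diet (n = 2), shared the fit and are otherwise given only as values. The labels state no concentrations, and the media differed in several components at once, so no difference can be assigned to 1 nutrient. No group was cultured in complete KSOM. The labels do not say whether replicates came from separate cultures, and the p-values therefore describe the spread among the sequenced libraries, which may be technical.

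Mouse blastocysts can enter diapause, a reversible arrest before implantation in which growth and cell division slow down. The growth kinase complex mTORC1 is central to this arrest. It is recruited by Rag GTPases to the lysosome, where amino acids released from degraded protein are sensed, and when it is off, the transcription factors TFEB and TFE3 can enter the nucleus and raise lysosome and autophagy genes. Amino acid shortage also activates the kinase GCN2 and through it the transcription factor ATF4. A trophectoderm layer, which takes up nutrients and pumps fluid into the cavity, surrounds the epiblast and the primitive endoderm.

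Total counts were 57240940, 44027959 and 56820116 in the reduced KSOM libraries, against 72125687 and 68518589 in the depleted KSOM libraries. Across 9208 genes, log2 CPM (counts scaled to a common library size) of 2 libraries correlated at 0.939 to 0.948 within reduced KSOM, at 0.922 within depleted KSOM and at 0.711 to 0.747 between the groups. Mitochondrially encoded transcripts took 4.12%, 6.05% and 6.26% of counts in reduced KSOM, against 12.2% and 13.2% in depleted KSOM. These shares did not overlap, and the exact two-sided permutation p of 0.1 is the smallest that 3 against 2 libraries allow. Transcripts of tissues outside the blastocyst also went with the groups. The 15 skeletal muscle genes summed to 1310, 1570 and 1120 CPM of the library total in reduced KSOM, against 159 and 191 CPM in depleted KSOM. The myosin light chain Mylpf, with 10884 and 12760 counts, made up most of the depleted KSOM sums, and most of the 15 genes had 0 counts there. The 15 neutrophil genes summed to 1460, 1980 and 1430 CPM in reduced KSOM, against 9.22 and 6.99 CPM in depleted KSOM. The 15 macrophage and lymphoid genes summed to 247, 347 and 247 CPM in reduced KSOM and to 5.55 and 4.25 CPM in depleted KSOM. The part of these transcripts in the results that follow was not tested in a sample that lacks them. With a term in edgeR's model for 4 libraries (the 3 of reduced KSOM and OVX replicate 1), 0 genes passed and 1687 had an unadjusted p under 0.05. In that fit OVX replicate 1 alone separates such transcripts from the medium, and 1225 of the 1263 genes described next kept their direction.

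**Figure D1:**
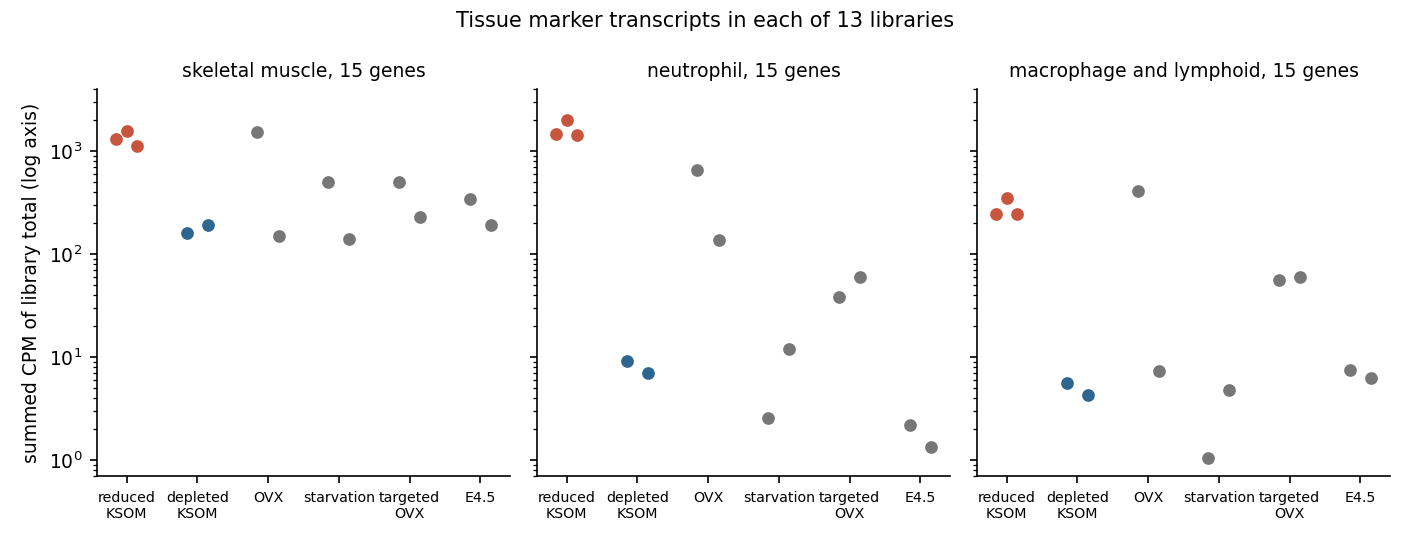
Summed CPM (share of the library total, log axis) of 15 skeletal muscle, 15 neutrophil and 15 macrophage and lymphoid genes, 1 point per library in 6 groups. The 3 reduced KSOM libraries sit at 1120 to 1570, 1430 to 1980 and 247 to 347 CPM, against 159 to 191, 6.99 to 9.22 and 4.25 to 5.55 CPM in depleted KSOM, while OVX replicate 1 holds 1530, 654 and 410 CPM. Mylpf made up most of the muscle sum in depleted KSOM.

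The groups differed widely. Of 21808 genes tested, 1263 (5.79%) passed edgeR's quasi-likelihood test, meaning an adjusted p (Benjamini-Hochberg) below 0.05, 652 higher (2.99%) and 611 lower (2.8%) in reduced KSOM. Among the 8257 genes with at least 5 CPM in both E4.5 libraries, 507 were higher (6.14%) and 532 lower (6.44%), with a median change of 4.39-fold (quartiles 3.33 and 7.1) for those higher and 3.23-fold (2.66 and 4.08) for those lower. The shares called are the background for the counts in gene lists that follow. Rose and fell are used below for higher and lower in reduced than in depleted KSOM, and describe no change over time. The groups' libraries did not overlap for 10523 genes, or 48.3% of those tested. The E4.5 mean lay nearer, on a log2 scale, to the mean of reduced KSOM than of depleted KSOM for 513 of the 611 lower genes (84%), for 417 of the 652 higher ones (64%) and for 54.4% of all genes tested. Since the libraries were whole embryos, fewer cells of a type and less RNA per cell cannot be told apart. The median log2 fold change over all genes was 0.29, and scaling by library totals shifted it to 0 and the calls to 489 higher and 775 lower. Most calls depended on each library. Without reduced KSOM replicate 1, 2 or 3 the count was 133, 202 or 121 genes, without depleted KSOM replicate 1 or 2 it was 148 or 225, and 65 genes, 23 higher and 42 lower, were called in all 5 of these fits.

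**Figure D2:**
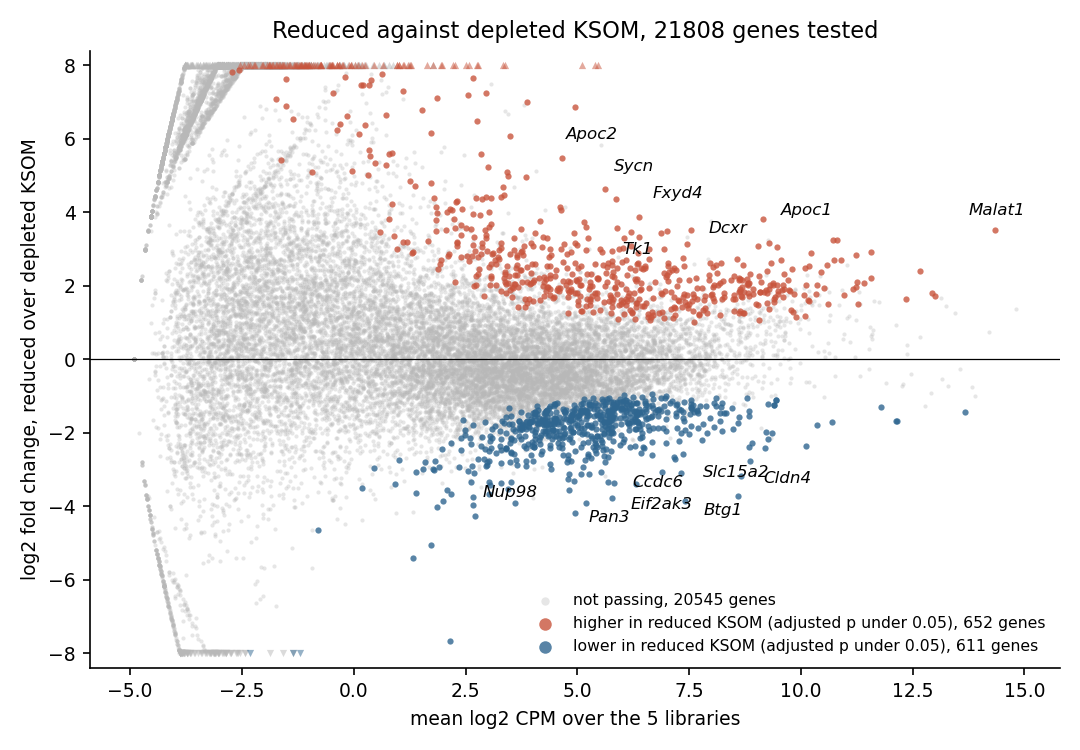
Log2 fold change of reduced over depleted KSOM for 21808 genes, against mean log2 CPM over the 5 libraries, with 652 genes called higher in red, 611 called lower in blue and the rest in grey. Triangles mark 903 genes beyond a log2 fold change of 8 in either direction, and 14 of the genes described next are named.

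The genes most strongly lower in reduced than in depleted KSOM included regulators of RNA, of the secretory stress response and of transport. Pan3 (ENSMUSG00000029647, chr5:147430161-147548502), a subunit of the complex that begins to shorten poly(A) tails, was at 8.47, 10.1 and 10.8 CPM in reduced KSOM, against 152 and 203 CPM in depleted KSOM. Its libraries were tight within each group and 18.1-fold apart (log2 fold change −4.18, SE 0.41, adjusted p 0.00162). Eif2ak3 (ENSMUSG00000031668, chr6:70844515-70905245) encodes PERK, the endoplasmic reticulum kinase that phosphorylates eIF2α. It was at 23, 16.7 and 18.7 CPM in reduced KSOM and at 292 and 240 CPM in depleted KSOM, 13.6-fold lower (log2 fold change −3.77, SE 0.57, adjusted p 0.00722), with 3.52 and 7.36 CPM in E4.5. Ccdc6 (ENSMUSG00000048701, chr10:70097121-70193200), a coiled-coil protein linked to the DNA damage checkpoint, had 19.6, 21.4 and 25.9 CPM in reduced KSOM against 248 and 214 CPM in depleted KSOM (log2 fold change −3.37, SE 0.34, adjusted p 0.00162). Nup98 (ENSMUSG00000063550, chr7:102119398-102210176), a nuclear pore protein, had 12, 11.3 and 10.1 CPM against 104 and 110 CPM (log2 fold change −3.26, SE 0.4, adjusted p 0.00314). Alkbh5, which removes the m6A mark from RNA, averaged 12.3 CPM in reduced KSOM and 123 CPM in depleted KSOM. Dipk1a, Osgin2, Tmem170 and S100a16, a calcium-binding protein, fell by 3.12, 3.13, 3.91 and 3.56 log2 units. The zinc importers Slc39a1 and Slc39a2 averaged 12.2 and 30.9 CPM in reduced KSOM, against 105 and 327 CPM in depleted KSOM. Of the 15 genes that lead this direction, with Btg1, Slc15a2, Cldn4 and Sall4 described further on, 9 were also called without any 1 of the 5 libraries, and the highest adjusted p of the other 6 across the leave-one-out fits was 0.101.

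The genes most strongly higher in reduced than in depleted KSOM included several for small secreted, membrane and mitochondrial proteins. Apoc1 (ENSMUSG00000040564, chr7:19689481-19692660), an apolipoprotein of lipoprotein particles, was at 1635, 1396 and 2042 CPM in reduced KSOM, against 90.4 and 147 CPM in depleted KSOM, 14.2-fold higher (log2 fold change 3.83, SE 0.5, adjusted p 0.00489). Its chromosomal neighbour Apoc2, the cofactor of lipoprotein lipase, spread more widely, at 123, 49.4 and 207 CPM in reduced KSOM and 3.18 and 2.47 CPM in depleted KSOM (log2 fold change 5.48, SE 1.1, adjusted p 0.0194). Fxyd4 (ENSMUSG00000004988, chr6:117933559-117937692), a small regulator of the sodium pump, had 270.2, 205 and 262 CPM against 16.8 and 16.5 CPM (log2 fold change 3.89, SE 0.4, adjusted p 0.00162). Dcxr (ENSMUSG00000039450, chr11:120725399-120727281), which reduces dicarbonyls and xylulose, had 506, 449.8 and 545 CPM against 36.3 and 50.1 CPM (log2 fold change 3.53, SE 0.39, adjusted p 0.00239). Sycn, a secretory granule protein known from the pancreas, had 180, 163 and 206 CPM against 10.1 and 4.61 CPM (log2 fold change 4.64, SE 0.77, adjusted p 0.0103). The groups of these 5 genes did not overlap, which was a condition for naming them and held for all 652 higher and 611 lower genes. Ltc4s, the leukotriene C4 synthase, Nostrin, an endothelial nitric oxide synthase trafficking protein, Cmc2, a cytochrome oxidase assembly factor, and Ndufs6b, a copy of a complex I subunit gene, rose by 3.75, 3.76, 3.58 and 3.6 log2 units. Reads of Ndufs6b may be shared with its near copy Ndufs6, so its value is uncertain. The nuclear noncoding RNA Malat1 had 60700, 48710 and 57230 CPM in reduced KSOM, against 5369 and 4272 CPM in depleted KSOM (log2 fold change 3.53, SE 0.68, adjusted p 0.0164), and 1735 and 2852 CPM in E4.5. Apoc1, Dcxr, Fxyd4 and Sycn were also called without any 1 of the 5 libraries, and the other 8 of the 12 genes, which include Fbp2 and Tk1, reached adjusted p values of up to 0.187.

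**Figure D3:**
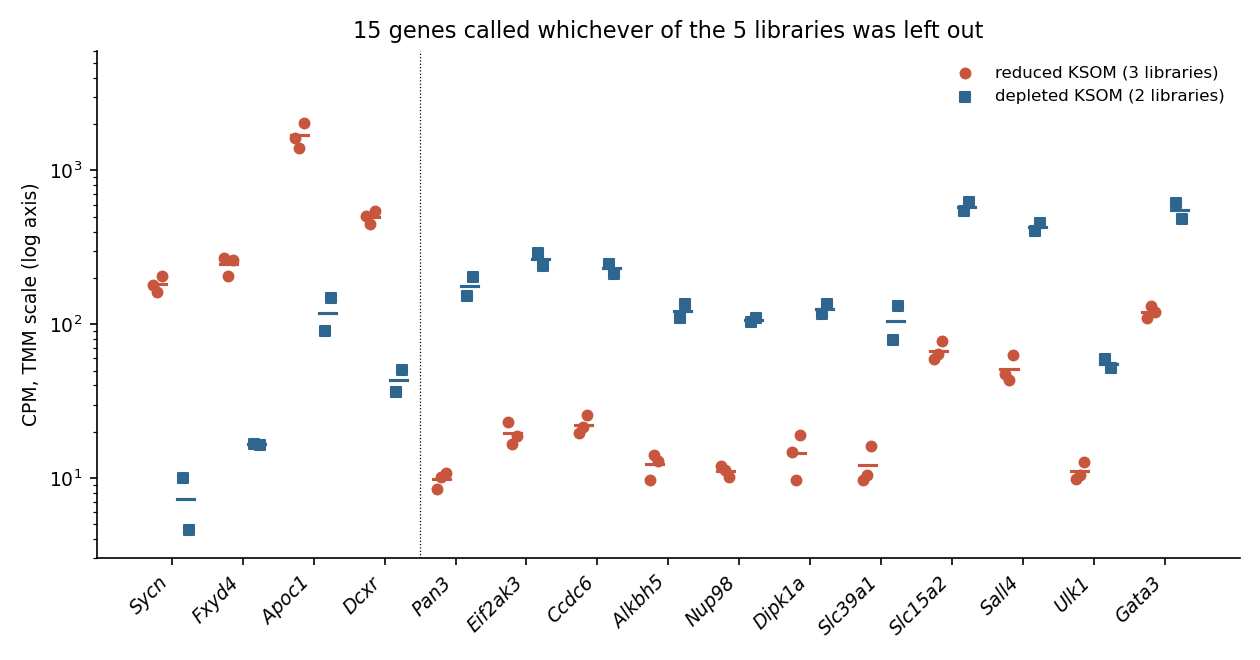
CPM on the TMM scale (log axis) of 15 genes in each library, with reduced KSOM (circles, 3 libraries) left of depleted KSOM (squares, 2 libraries) and lines at the means. The 4 genes left of the dotted line were higher and the 11 right of it lower in reduced KSOM. Their groups do not overlap, as was so for every gene called.

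Many lysosome genes fell, with 15 of 53 tested members lower (28.3%, against 2.8% of all genes tested and 6.44% of those expressed in E4.5), 0 higher and 38 not passing. Their median log2 fold change was −0.68, against 0.29 over all genes. Genes of ganglioside breakdown were among them. Hexa, a lysosomal glycosidase subunit, had 208, 234 and 193 CPM in reduced KSOM, against 661 and 387 CPM in depleted KSOM. Gm2a, the activator that presents ganglioside to its hydrolase, had 2603, 2525 and 3320 CPM in reduced KSOM, against 8137 and 9989 CPM in depleted KSOM (log2 fold change −1.69, adjusted p 0.0345). Both were lower in each reduced KSOM library than in either depleted KSOM library. Psap, the precursor of the saposins, averaged 257 CPM in reduced KSOM and 760 CPM in depleted KSOM (adjusted p 0.0147). The proton pump subunits Atp6ap1 and Atp6v1b2 averaged 43.9 and 106 CPM in reduced KSOM and 147 and 319 CPM in depleted KSOM. The membrane glycoproteins Lamp1 and Lamp2 fell by 1.26 and 1.38 log2 units. The others included the proteases Ctsa and Lgmn, the glycosidases Gusb and Neu1 and the acid ceramidase Asah1, with log2 fold changes from −2.15 for Gusb to −1.21 for Asah1. The cathepsins Ctsd and Ctsb did not pass and had log2 fold changes of 0.09 and −0.13 with standard errors of 0.32 and 0.47. Leaving out 1 library left 0 to 5 members called and adjusted p values of 0.0357 to 0.494 for the 15 genes, while their direction stayed the same, and with offsets for transcript length 10 members were called lower and the median was −0.47.

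Some genes that act upstream of mTORC1 and in the first steps of autophagy were also lower. Among 47 genes of mTORC1 and nutrient sensing, 5 were lower (10.6%, against 6.44% of genes expressed in E4.5) and 0 higher. The other 42 did not pass, and the median log2 fold change was −0.43. Rragc (ENSMUSG00000028646, chr4:123917446-123936997), a Rag GTPase that brings mTORC1 to the lysosome, had 30.5, 27.2 and 25.2 CPM in reduced KSOM, against 202 and 112 CPM in depleted KSOM (log2 fold change −2.5, SE 0.38, adjusted p 0.00722), with 13.8 and 21.2 CPM in E4.5. Fnip1 and Fnip2, the partners of folliculin that act on Rag GTPases, fell by 1.93 and 1.79 log2 units, Seh1l of the GATOR2 complex fell by 1.43, and Prkag2, a subunit of the energy sensor AMPK, fell by 1.52. Mtor itself did not pass (log2 fold change −0.57, SE 0.4). Among 39 genes of the autophagy machinery, 5 were lower (12.8%, against the same 6.44%) and 0 higher, with a median of −0.5. Ulk1 (ENSMUSG00000029512, chr5:110784488-110810097), the kinase that starts autophagy and is inhibited by mTORC1, had 9.91, 10.5 and 12.7 CPM in reduced KSOM, against 59 and 51.6 CPM in depleted KSOM, 5.01-fold lower (log2 fold change −2.32, SE 0.32, adjusted p 0.00548), and it kept its call without any 1 library. E4.5 blastocysts had 50.3 and 47.6 CPM of it, close to the depleted KSOM libraries. Its partner Atg13, the lipid kinase Pik3c3, its regulator Becn1 and the cargo receptor Tax1bp1 fell by 1.15, 1.42, 1.42 and 1.44 log2 units. Another receptor, Sqstm1, averaged 63.6 CPM in reduced KSOM and 99.2 CPM in depleted KSOM and did not pass (adjusted p 0.173), and Tfeb had a log2 fold change of 0.07 (SE 0.72). Ulk1 apart, the 9 called genes reached adjusted p values of up to 0.363 when 1 library was left out, and with length offsets Atg13, Fnip2, Pik3c3 and Prkag2 did not pass.

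The promoters of some of these genes hold the E-box TCACGTG, the core of the sites that TFEB and TFE3 are known to bind. It was searched on both strands from 250 bases before to 50 bases after the start of each gene in RefSeq (GRCm38.p6). The windows of 4.29% of 27025 genes hold it, and those of 852 of 13340 genes tested (6.39%). Among lower genes that have a window it was found in 45 of 457 (9.85%), and among higher ones in 24 of 422 (5.69%). Among lysosome genes it was found in 3 of 10 lower members (Ctsa, Lamp1 and Lgmn) and in 10 of 32 that did not pass. Rragc and Fnip1 were the 2 of 4 lower mTORC1 genes with it. Parts of 4 of these windows are shown for the position of the E-box, in capitals, relative to the gene start, from 120 bases before it to 30 after. Lamp1 (chr8:13159041-13159190, plus strand) has 4 copies, Ctsa (chr2:164833653-164833802, plus strand) has 2 stretches that each read as the motif on both strands, at 1 of its 2 annotated starts, and Rragc (chr4:123917313-123917462, plus strand) and Fnip1 (chr11:54438059-54438208, plus strand) have 1 copy each, which begins 112 and 75 bases before the start.
Lamp1: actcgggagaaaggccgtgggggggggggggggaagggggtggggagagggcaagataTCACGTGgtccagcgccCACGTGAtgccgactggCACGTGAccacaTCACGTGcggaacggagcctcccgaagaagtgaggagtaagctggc
Ctsa: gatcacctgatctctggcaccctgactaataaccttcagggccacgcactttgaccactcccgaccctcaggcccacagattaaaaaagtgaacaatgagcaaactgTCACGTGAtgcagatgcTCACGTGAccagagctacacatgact
Rragc: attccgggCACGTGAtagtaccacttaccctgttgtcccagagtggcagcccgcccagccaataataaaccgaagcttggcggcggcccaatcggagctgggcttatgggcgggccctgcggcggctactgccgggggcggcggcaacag
Fnip1: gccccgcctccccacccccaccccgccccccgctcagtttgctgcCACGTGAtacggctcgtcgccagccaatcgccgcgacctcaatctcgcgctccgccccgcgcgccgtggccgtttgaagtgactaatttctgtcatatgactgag

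The label of reduced KSOM names lowered amino acids, while that of depleted KSOM names only protein and carbohydrate components. How the free amino acids of the media differed is therefore not known. The genes that take up and break down amino acids were read with this limit. Of 37 amino acid transporters 2 were lower (5.41%, against 6.44% of genes expressed in E4.5) and 0 higher. Slc15a2 (ENSMUSG00000022899, chr16:36750177-36784962), the high-affinity carrier of dipeptides and tripeptides, had 59.7, 64.5 and 78.2 CPM in reduced KSOM, against 541 and 620 CPM in depleted KSOM, 8.61-fold lower (log2 fold change −3.11, SE 0.35, adjusted p 0.00271). E4.5 blastocysts had 63.7 and 162 CPM, nearer to reduced than to depleted KSOM. Slc6a14, a carrier of neutral and cationic amino acids, had 16.5, 14.9 and 21.8 CPM against 91.5 and 93.6 CPM (log2 fold change −2.39, SE 0.53, adjusted p 0.0259). The arginine and lysine carriers Slc7a1 and Slc7a3 averaged 21.5 and 13.6 CPM in reduced KSOM and 18.3 and 34.5 CPM in depleted KSOM, and neither passed. Slc7a5 and Slc38a2 did not pass either, at 8.36 and 35.1 CPM against 4.94 and 68.5 CPM, nor did the cystine carrier Slc7a11 at 1.5 and 0.17 CPM. Of 29 genes that break down branched-chain amino acids, arginine and lysine, 4 were lower (13.8%, against 6.44% of genes expressed in E4.5) and 0 higher. Their median log2 fold change was −0.8. The median was −0.093 with the term for muscle transcripts, and 1 member was called lower with length offsets. Bcat2, the transaminase that takes the first step with leucine and isoleucine, had 68, 55.3 and 31.9 CPM in reduced KSOM, against 168 and 151 CPM in depleted KSOM (log2 fold change −1.62, SE 0.36, adjusted p 0.0272). Hibadh of valine breakdown and Dld, a shared dehydrogenase subunit, fell by 1.67 and 1.32 log2 units.

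No member of the amino acid response passed. Of 38 targets and regulators of ATF4, 19 had log2 fold changes above 0 and 19 below, the median was 0.01, and 3 higher and 4 lower had an unadjusted p under 0.05, in edgeR. DESeq2 called 3 higher and 1 lower, limma on FPKM 1 lower, and with library totals as scaling the median was −0.37 and 1 was called lower. Atf4 averaged 78.1 CPM in reduced KSOM and 51 CPM in depleted KSOM, and Ddit3 199 and 146 CPM. Asns, the asparagine synthetase, had 248, 117 and 170 CPM in reduced KSOM, against 473 and 300.1 CPM in depleted KSOM, without overlap and without passing (log2 fold change −1.12, SE 0.38, adjusted p 0.107). Trib3 and Chac1 averaged 19.3 and 7.27 CPM in reduced KSOM and 11.1 and 1.57 CPM in depleted KSOM, and Sesn2 and Ddit4 averaged 5.94 and 2.03 CPM against 7.97 and 0.75 CPM. Eif4ebp1, a translation repressor switched off by mTORC1, was nearest to passing, at 654, 438 and 533 CPM in reduced KSOM against 225 and 310.2 CPM in depleted KSOM (log2 fold change 1.02, SE 0.33, adjusted p 0.0878). The summed level of the list was 2240, 1770 and 1930 CPM of the library total in reduced KSOM, against 3910 and 4190 CPM in depleted KSOM (exact permutation p 0.1, the smallest possible). Nupr1, a stress-induced chromatin protein, made up much of that gap, with 380, 307 and 387 CPM in reduced KSOM, against 1353 and 1789 CPM in depleted KSOM (log2 fold change −2.13, SE 0.79, adjusted p 0.134), and 21.4 CPM on average in E4.5. Of 20 aminoacyl-tRNA synthetases, Iars for isoleucine and Qars for glutamine fell by 1.57 and 1.05 log2 units and 18 did not pass. The share lower was 10%, against 6.44% of genes expressed in E4.5. The 11 called genes examined here pool amino acid genes with genes of zinc import and the kinase gene Eif2ak3. Among them Slc15a2, Slc39a1 and Eif2ak3 were also called without any 1 library, and only Slc15a2 of these belongs to the amino acid lists. The highest adjusted p of the rest was 0.324. With length offsets Bcat2, Dld, Iars and Qars did not pass.

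A glucose carrier and a lactate carrier were lower and several glycolytic enzymes higher in reduced KSOM. Of 29 genes of glucose transport and glycolysis 5 were higher (17.2%) and 2 lower (6.9%). Among genes expressed in E4.5 these shares were 6.14% and 6.44%, so the share lower was near the background. The median log2 fold change of 0.18 turned to −0.17 with library totals as scaling. Slc2a3, the high-affinity glucose carrier GLUT3, had 177, 239.6 and 229 CPM in reduced KSOM, against 635 and 560.4 CPM in depleted KSOM (log2 fold change −1.47, SE 0.3, adjusted p 0.0209), with 190 and 257 CPM in E4.5. Slc16a1, the carrier of lactate and pyruvate MCT1, had 14.4, 17.6 and 19.6 CPM against 54 and 52.7 CPM (log2 fold change −1.63, SE 0.42, adjusted p 0.0409). E4.5 had 16.7 and 19.7 CPM of Slc16a1, so both carriers were close to E4.5 in reduced KSOM and above it in depleted KSOM. Slc2a1, the carrier GLUT1, averaged 19.7 CPM against 36.4 CPM and did not pass. Ldha, a lactate dehydrogenase subunit, had 59.8, 63.6 and 57 CPM in reduced KSOM, against 12 and 14.2 CPM in depleted KSOM (log2 fold change 2.2, SE 0.42, adjusted p 0.0158), and Gapdh had 129, 161 and 163 CPM against 26.3 and 39.7 CPM (log2 fold change 2.19, SE 0.41, adjusted p 0.0152). The phosphofructokinase Pfkp rose by 2.01 log2 units. The last 2 higher members, Pfkm and Eno3, are the forms of phosphofructokinase and enolase that predominate in skeletal muscle, whose transcripts were present in all 3 reduced KSOM libraries. Hk2, Ldhb, Pdk4, Pfkfb3 and Txnip averaged 1278, 6.64, 14.8, 6.81 and 8.66 CPM in reduced KSOM, against 720, 14.7, 0.93, 0.4 and 0.49 CPM in depleted KSOM, and none of the 5 passed.

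Of 22 genes of the pentose phosphate pathway and glycogen 2 were higher (9.09%, against 6.14% of genes expressed in E4.5), and both are known from muscle. Fbp2, a fructose bisphosphatase, had 187, 213 and 211 CPM in reduced KSOM, against 5.64 and 14.2 CPM in depleted KSOM (log2 fold change 4.36, SE 1.06, adjusted p 0.0351). E4.5 had 566 and 539.9 CPM of Fbp2. Pygm, the muscle glycogen phosphorylase, had 54.7, 65.7 and 50.2 CPM against 0.27 and 0.47 CPM, and at most 1.86 CPM in E4.5. Of 33 genes of pyruvate entry and the TCA cycle 3 were lower (9.09%, near the 6.44% of genes expressed in E4.5) and 0 higher. Their median was −0.5. Pdha1, the E1 subunit of pyruvate dehydrogenase, had 132, 112 and 124 CPM against 304 and 243 CPM (log2 fold change −1.16, SE 0.25, adjusted p 0.0257), Dld, its E3 subunit, is given above, and the malic enzyme Me1 fell by 2.46 log2 units. None of the 11 called genes of carbon use kept its call in each leave-one-out fit, where adjusted p values reached 0.251, and with length offsets Slc16a1 and Pfkm did not pass.

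Some genes that burn fatty acids were lower and some that make and bind them higher. Of 34 genes of fatty acid oxidation 5 were lower (14.7%, against 6.44% of genes expressed in E4.5) and 0 higher. Their median log2 fold change was −0.52. Cpt2, the inner carnitine acyltransferase, had 8.74, 13.2 and 14.9 CPM in reduced KSOM, against 39.4 and 42.6 CPM in depleted KSOM (log2 fold change −1.73, SE 0.33, adjusted p 0.0162). Acsl3, which activates long-chain fatty acids, and the dehydrogenases Acadl and Hadh fell by 1.96, 1.42 and 1.19 log2 units, as did the thioesterase Acot2 by 2.49. Cpt1a, the gate of mitochondrial fatty acid entry, had 10.1, 24.2 and 27.3 CPM in reduced KSOM, against 71.8 and 65.8 CPM in depleted KSOM, without overlap and without passing (adjusted p 0.0769). Among 24 genes of fatty acid synthesis and binding 3 were higher (12.5%, against 6.14% of genes expressed in E4.5) and 1 lower. Fasn, the fatty acid synthase, had 20.1, 14.6 and 16.8 CPM in reduced KSOM, against 1.33 and 6.02 CPM in depleted KSOM (log2 fold change 2.22, SE 0.6, adjusted p 0.0489). Its activator Srebf1 rose by 2.09 log2 units. Fabp5, a fatty acid binding protein, had 46.2, 82.6 and 58.6 CPM against 0.85 and 3.13 CPM, and 587 and 530.3 CPM in E4.5, so that both cultured groups were far below the earlier blastocyst. Elovl1, an elongase of very long chains, fell by 1.78 log2 units. The median of 24 genes of sterol synthesis was −0.79 and turned to 0.057 with the term for muscle transcripts. Of these 24 genes 2 were lower (8.33%, near the 6.44% of genes expressed in E4.5) and 0 higher. Among them was Insig1, a sterol-dependent regulator of this pathway, which fell by 2.14 log2 units. None of 11 called lipid genes examined kept its call in each leave-one-out fit (adjusted p up to 0.304), and with length offsets Elovl1, Fasn and Hadh did not pass.

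Some nuclear genes of the respiratory chain were higher and some mitochondrially encoded ones lower. Of 72 nuclear genes of oxidative phosphorylation 20 were higher (27.8%, against 6.14% of genes expressed in E4.5), 1 lower and 51 did not pass. Their median log2 fold change was 1.44. Cox6c, a small subunit of cytochrome oxidase, had 3725, 2928 and 4432 CPM in reduced KSOM, against 492 and 638 CPM in depleted KSOM (log2 fold change 2.71, SE 0.57, adjusted p 0.0228), and 888 and 689 CPM in E4.5. Cox8a of the same complex and Ndufa2 of complex I rose by 1.76 and 2.31 log2 units. The lower gene was Ndufs1, the largest subunit of complex I, with 53.3, 46.5 and 40.4 CPM against 127 and 107 CPM (log2 fold change −1.32, SE 0.26, adjusted p 0.0192). Of the 13 mRNAs encoded in mitochondria 4 were lower (30.8%, against 6.44% of genes expressed in E4.5) and 0 higher. In this list 12 had a log2 fold change below 0, with a median of −0.62. mt-Nd5 had 903, 1071 and 1153 CPM in reduced KSOM, against 3141 and 3695 CPM in depleted KSOM (log2 fold change −1.71, SE 0.39, adjusted p 0.0282), and 1197 and 1469 CPM in E4.5. mt-Cytb had 7008, 7897 and 11630 CPM against 22490 and 25150 CPM, and mt-Nd4 and mt-Nd4l fell by 1.29 and 1.34 log2 units. With length offsets 6 nuclear genes were called higher and the median was 0.97, while 7 mitochondrial mRNAs were called lower with a median of −1.48, and Cox8a did not pass. No leave-one-out fit called a nuclear or mitochondrial member of either list, and with the term for muscle transcripts the nuclear median turned to −0.23.

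Among the lists described here, ribosomal proteins had the most genes that rose. Of 79 genes of cytosolic ribosomal proteins 34 were higher (43%, against 2.99% of all genes tested), 0 lower and 45 did not pass, 78 had log2 fold changes above 0, and the median was 1.38. Rpl37a had 2411, 2185 and 1970 CPM in reduced KSOM, against 319 and 467 CPM in depleted KSOM (log2 fold change 2.48, SE 0.44, adjusted p 0.0137), and 1190 and 860 CPM in E4.5. Rpl41 had 4202, 3886 and 4072 CPM against 599 and 648 CPM, Rpl31 had 1573, 1263 and 1812 CPM against 296 and 402 CPM, and Rps15a had 845, 614 and 817 CPM against 130 and 213 CPM. For each of these 4 genes the lowest reduced KSOM library was at least 2 times the highest depleted KSOM library. Many ribosomal protein genes have processed copies elsewhere in the genome, so their counts may share reads with these. Without 1 library 0 to 3 of them were called, with length offsets 18 were called higher and the median was 1.26, and with the term for muscle transcripts the median was 0.42. Of 41 translation factors 2 were lower (4.88%, below the 6.44% of genes expressed in E4.5) and 0 higher. Eif4a1, the helicase of initiation, had 110.3, 84.1 and 128 CPM in reduced KSOM, against 267 and 285 CPM in depleted KSOM (log2 fold change −1.36, SE 0.32, adjusted p 0.0307), and its cofactor Eif4h fell by 1.27 log2 units. Both lost their calls with length offsets. Of 38 genes of ribosome biogenesis 3 were higher (7.89%) and 2 lower (5.26%), near the 6.14% and 6.44% of genes expressed in E4.5. Gnl3 and Tcof1 rose by 1.21 and 1.59 log2 units, and Utp4 and the RNA polymerase I factor Rrn3 changed by −1.34 and −1.86. With Rpl38, 11 called genes of ribosomes and translation are named, and all lost their call in at least 1 leave-one-out fit, with adjusted p values of up to 0.283.

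Messenger RNAs of ribosomal proteins are known to start with a C and a run of pyrimidines, the element through which mTORC1 acts on their translation. A run of at least 7 pyrimidines that starts with C lay within 10 bases of the RefSeq start in 10.5% of the genes with a window, in 11 of 23 higher ribosomal protein genes that have a window (47.8%) and in 13 of 35 that did not pass (37.1%). Among all genes called it was found in 12.1% of the higher and 12% of the lower ones. The starts of 3 higher genes are shown, from 20 bases before to 30 bases after it with the run in capitals, for Rpl31 (chr1:39367831-39367880, plus strand), Rps15a (chr7:118116118-118116167, minus strand) and Rpl38 (chr11:114668560-114668609, plus strand), which rose by 2.15, 2.15 and 3.06 log2 units.
Rpl31: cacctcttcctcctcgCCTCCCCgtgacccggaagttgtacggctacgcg
Rps15a: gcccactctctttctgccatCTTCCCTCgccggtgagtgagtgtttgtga
Rpl38: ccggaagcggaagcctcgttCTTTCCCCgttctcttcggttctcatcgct

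**Figure D4:**
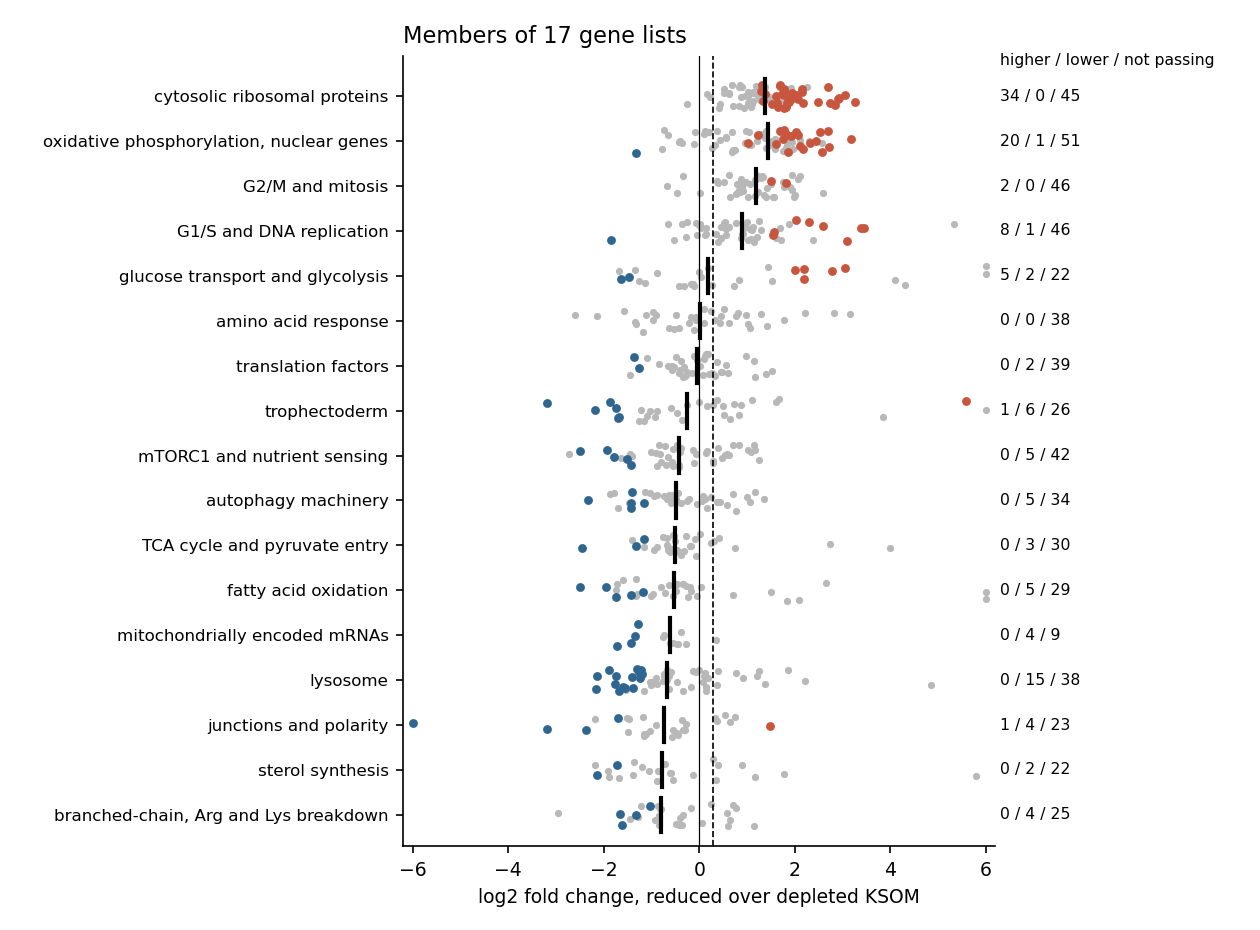
Log2 fold change of reduced over depleted KSOM for the members of 17 gene lists, with members called higher in red and lower in blue, medians as black bars and the median of all genes (0.29) as a dashed line. The numbers on the right count members higher, lower and not passing, such as 34, 0 and 45 of the ribosomal proteins and 0, 15 and 38 of the lysosome, and 6 members lie beyond the axis limit of 6.

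Some genes of DNA replication were higher, and 3 genes linked to quiescence lower. Of 55 genes of G1/S and DNA replication 8 were higher (14.5%, against 6.14% of genes expressed in E4.5) and 1 lower. In this list 46 had log2 fold changes above 0, with a median of 0.89. Tk1, the thymidine kinase of S phase, had 196, 221 and 163 CPM in reduced KSOM, against 16.4 and 18.9 CPM in depleted KSOM (log2 fold change 3.46, SE 0.6, adjusted p 0.012), with 211 and 167 CPM in E4.5. Cdc6, which loads the replicative helicase, had 21, 22.7 and 17.3 CPM against 1.26 and 2.62 CPM (log2 fold change 3.39, SE 0.61, adjusted p 0.0139). Gins1 and Mcm5, parts of that helicase, rose by 2.29 and 2.03 log2 units, and the kinase Cdk2 fell by 1.85. In reduced KSOM these genes were thus nearer to E4.5 than in depleted KSOM, where Cdc6, Gins1 and Mcm5 averaged 1.94, 8.21 and 14.7 CPM. Of 48 genes of G2/M and mitosis 2 were higher (4.17%, below the 6.14% of genes expressed in E4.5) and 0 lower. Their median of 1.18 turned to −0.17 with the term for muscle transcripts. The 2 higher genes were Smc2 of condensin and Spc25 of the kinetochore, which rose by 1.5 and 1.81 log2 units. Mki67, the proliferation marker, had 51.3, 47.5 and 78 CPM in reduced KSOM, against 18.7 and 8.78 CPM in depleted KSOM and 80.3 and 89.2 CPM in E4.5, and did not pass (log2 fold change 2.1, SE 0.68, adjusted p 0.0917). Of 24 inhibitors and quiescence genes 3 were lower (12.5%, against 6.44% of genes expressed in E4.5) and 1 higher. Btg1, an antiproliferative adaptor of mRNA deadenylation, had 48.6, 56.9 and 73.3 CPM in reduced KSOM, against 1014 and 706 CPM in depleted KSOM (log2 fold change −3.85, SE 0.61, adjusted p 0.00907), and 15.6 and 20.5 CPM in E4.5. Foxo3, a transcription factor active when insulin signalling is low, had 11.8, 10.5 and 16.4 CPM against 49.4 and 75.3 CPM (log2 fold change −2.27, SE 0.4, adjusted p 0.0135), and Klf4 fell by 1.95 log2 units. Foxo1 averaged 6.49 CPM against 12 CPM and did not pass. The higher gene was Cdkn1c, an imprinted inhibitor, at 0.8, 0.42 and 1.85 CPM in reduced KSOM and 0 counts in both depleted KSOM libraries. Another inhibitor, Cdkn1a, averaged 96.2 CPM in reduced KSOM and 27.3 CPM in depleted KSOM. It did not overlap between the groups and did not pass (log2 fold change 1.82, SE 0.63, adjusted p 0.11). Myc and Mycn averaged 10.8 and 12.1 CPM in reduced KSOM and 16 and 30.1 CPM in depleted KSOM and did not pass. Of 20 genes of the MYC network Nme1 rose by 2.02 and Max fell by 1.71 log2 units. That was 5% in each direction, below the 6.14% and 6.44% of genes expressed in E4.5. The highest adjusted p of the 13 called genes in the leave-one-out fits was 0.269, and Btg1 and Tk1 kept their calls in 4 of the 5. With length offsets Cdkn1c and Max did not pass.

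Some genes of the trophectoderm fell. Of 33 tested markers 6 were lower (18.2%, against 6.44% of genes expressed in E4.5) and 1 higher. Gata3 (ENSMUSG00000015619, chr2:9857078-9890034), a transcription factor that specifies this lineage, had 109.5, 132 and 119 CPM in reduced KSOM, against 617 and 484 CPM in depleted KSOM (log2 fold change −2.19, SE 0.31, adjusted p 0.00633), and it kept its call without any 1 library. E4.5 blastocysts had 194 and 245 CPM of it, between the groups. Cldn4, a claudin of tight junctions, had 209, 122 and 181 CPM against 1750 and 1347 CPM (log2 fold change −3.18, SE 0.54, adjusted p 0.0109). Fgfr2, the receptor for FGF4, the factor Tfap2a and the water and glycerol channel Aqp3 fell by 1.75, 1.7 and 1.67 log2 units. The higher one was Plac8, at 6.71, 7.99 and 8.01 CPM in reduced KSOM and 0.12 and 0.19 CPM in depleted KSOM. Cdx2 had 24.7, 19.2 and 14.8 CPM in reduced KSOM, against 42 and 45.6 CPM in depleted KSOM and 59 and 68.1 CPM in E4.5, without overlap and without passing (adjusted p 0.0759), and the keratin Krt8 had a log2 fold change of 0.88 (SE 0.49). The defining markers of the blastocyst were thus detected in both groups.

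Few epiblast genes and no primitive endoderm gene passed. Of 30 epiblast genes 3 were lower (10%, against 6.44% of genes expressed in E4.5) and 1 higher. Sall4 (ENSMUSG00000027547, chr2:168748332-168767943), a zinc finger factor of pluripotent cells, had 47.7, 43.1 and 63.2 CPM in reduced KSOM, against 406 and 456 CPM in depleted KSOM, 8.39-fold lower (log2 fold change −3.07, SE 0.45, adjusted p 0.00678), with 107 and 95 CPM in E4.5, and it also kept its call without any 1 library. Klf5 had 199, 210.3 and 212 CPM against 586 and 552 CPM (log2 fold change −1.46, SE 0.25, adjusted p 0.0116), and Klf4 was described above. Both factors act in trophectoderm and epiblast. Dppa2, an early embryonic chromatin protein, had 60.6, 58.8 and 62.9 CPM in reduced KSOM, against 17 and 23.2 CPM in depleted KSOM and 198 and 165 CPM in E4.5 (log2 fold change 1.6, SE 0.31, adjusted p 0.0185). The core factors Pou5f1, Nanog and Sox2 averaged 17.6, 12.1 and 6.13 CPM in reduced KSOM, against 20.1, 27.3 and 7.14 CPM in depleted KSOM, and none passed. Of 26 primitive endoderm genes 0 were called, 5 higher and 2 lower had an unadjusted p under 0.05, DESeq2 called 4 higher and 2 lower, and limma on FPKM and library totals as scaling each called 2 lower. Gata6 averaged 38.2 CPM in reduced KSOM and 43 CPM in depleted KSOM, Sox17 averaged 5.03 and 6.49 CPM, and Dab2, the nearest to passing, had 538, 455 and 483 CPM against 1070 and 885 CPM (adjusted p 0.0607). Of 20 genes of trophoblast giant cells and implantation Timp1, an inhibitor of matrix proteases, rose by 3.07 log2 units and the tissue factor F3 fell by 2.38. That was 5% in each direction, below the 6.14% and 6.44% of genes expressed in E4.5. Apart from Gata3 and Sall4, the 13 called lineage genes examined reached adjusted p values of up to 0.31 with 1 library left out, and with length offsets F3, Tfap2a and Timp1 did not pass.

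Several signalling and junction genes were lower. Of 30 genes of LIF, STAT3, FGF and ERK signalling 5 were lower (16.7%, against 6.44% of genes expressed in E4.5) and 2 higher. Jak1, the kinase below the LIF receptor, had 28.9, 25 and 22.8 CPM in reduced KSOM, against 114 and 105 CPM in depleted KSOM (log2 fold change −2.1, SE 0.38, adjusted p 0.0137), and its target Stat3 had 49.8, 51.6 and 42.2 CPM against 209.6 and 145 CPM (log2 fold change −1.89, adjusted p 0.0178). Lifr averaged 9.8 CPM against 22.7 CPM and did not pass. Spry2, a feedback inhibitor of ERK signalling, fell by 2.35 log2 units, whereas the ERK phosphatase Dusp4 rose by 3.08, at 10.1, 15.3 and 9.93 CPM against 1.1 and 1.69 CPM. The ERK target Etv4 had 1.51, 4.56 and 2.73 CPM in reduced KSOM and 0 counts in both depleted KSOM libraries. Of 28 genes of junctions and polarity 4 were lower (14.3%, against the same 6.44%) and 1 higher. Their median of −0.74 moved to 0.0021 with the term for muscle transcripts. Gjb2, the gap junction protein connexin 26, had 0.21, 0.2 and 1.64 CPM in reduced KSOM, against 120 and 161 CPM in depleted KSOM, and 0 in E4.5 (log2 fold change −7.68, SE 1.77, adjusted p 0.0349). Cingulin (Cgn) and occludin (Ocln) of tight junctions fell by 2.38 and 1.71 log2 units and the membrane linker ezrin (Ezr) rose by 1.49. Of 21 genes of ion and water transport Fxyd4, given above, was higher, and the channels Aqp3 and Aqp9 were lower by log2 fold changes of −1.67 and −1.18. The shares were 4.76% higher and 9.52% lower, against 6.14% and 6.44% of genes expressed in E4.5. Among the 12 called genes Fxyd4 kept its call without any 1 library, and the rest reached adjusted p values of up to 0.31. With length offsets Aqp9 and Ocln did not pass.

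Stress genes were mixed. Of 35 genes of oxidative stress and glutathione 4 were higher (11.4%) and 2 lower (5.71%), against 6.14% and 6.44% of genes expressed in E4.5. The glutathione transferases Gstp1, Gsta1 and Gsta4 rose by 2.47, 4.01 and 1.74 log2 units and the metallothionein Mt2 by 1.97. Gclc, which limits glutathione synthesis, had 4.36, 3.03 and 4.35 CPM in reduced KSOM, against 19.4 and 23.1 CPM in depleted KSOM (log2 fold change −2.44, SE 0.51, adjusted p 0.0219), and Me1, which supplies NADPH, was lower as well. Gstp1 has near-identical copies, so its reads may be split between them. Of 38 heat shock and endoplasmic reticulum chaperones Hspb1 and Hspe1 rose by 2.62 and 1.88 log2 units and Canx fell by 1.26. These shares, 5.26% higher and 2.63% lower, were below the 6.14% and 6.44% of genes expressed in E4.5. With length offsets Gclc, Gstp1 and Me1 kept their calls and the other 6 of the 9 did not, and none kept its call in each leave-one-out fit (adjusted p up to 0.244). Of 20 hypoxia and 34 p53 and apoptosis genes 0 passed in edgeR, although 7 hypoxia genes were lower and 3 higher at an unadjusted p under 0.05 and 1 p53 gene was lower and 3 higher. DESeq2 called 5 hypoxia genes lower and 2 higher and 1 p53 gene lower and 2 higher, and limma on FPKM called 3 and 1 lower. The nearest were Ndrg1, with 340.2, 340 and 307 CPM in reduced KSOM against 1440 and 972 CPM in depleted KSOM (adjusted p 0.051), and Ccng1, with 111, 205 and 122 CPM against 53.1 and 46 CPM (adjusted p 0.0701).

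Many skeletal muscle, neutrophil and macrophage genes were higher in reduced KSOM. Of 15 skeletal muscle genes 11 were higher, and 11 and 12 of them had 0 counts in the 2 depleted KSOM libraries. Ckm, the muscle creatine kinase, had 101, 128 and 94.6 CPM in reduced KSOM and 0.35 and 0 CPM in depleted KSOM, and Tnnt3 and Pvalb had 63.6 to 89.6 and 31 to 43.1 CPM and 0 in both depleted KSOM and both E4.5 libraries. Mylpf, a myosin light chain, was present throughout, at 451, 299.8 and 363 CPM against 134 and 172 CPM, and did not pass. Of 15 neutrophil genes 6 were higher, with S100a8 at 480.1, 593 and 478 CPM against 2.1 and 0.42 CPM, and S100a9, Ngp, Camp, Lcn2 and Retnlg likewise. Of 12 tested macrophage and lymphoid genes 3 were higher. They were Lyz2, at 192, 237 and 188 CPM against 1.79 and 1.75 CPM, and the complement genes C1qb and C1qc. C1qa, Adgre1, Csf1r and Cd14 did not pass. They averaged 24.4, 2.46, 2.97 and 4.16 CPM against 0.44, 0.052, 0.12 and 0.42 CPM, without overlap. The pan-leukocyte gene Ptprc and the lymphoid genes Cd3e, Cd8a, Cd79a and Ighm overlapped between the groups. Ptprc was under 1 CPM in every library of both groups. Haemoglobin transcripts did not go with the groups. Hba-a1 had 21.9, 18.2 and 141 CPM in reduced KSOM, against 178 and 1.39 CPM in depleted KSOM, and Hbb-bs had 9.35, 4.69 and 123 CPM against 67.6 and 1.97 CPM, so reduced KSOM replicate 3 and depleted KSOM replicate 1 were high and the groups overlapped. No member passed in edgeR among 7 erythroid, 13 liver, 9 uterine and oviduct, 10 decidual and stromal, 6 cumulus and granulosa and 6 keratinocyte genes, whose nearest were Slc4a1, Apoa1, Foxa2, Col1a1, Ptx3 and Dsg3 with adjusted p values of 0.232, 0.137, 0.168, 0.0868, 0.21 and 0.134. In these 6 lists 0, 3, 1, 4, 1 and 3 members were higher and 0 lower at an unadjusted p under 0.05, DESeq2 called 0, 3, 1, 5, 0 and 2 higher, and limma on FPKM called 3 decidual and stromal genes and 1 cumulus and granulosa gene higher. Of the decidual and stromal genes 9 had log2 fold changes above 0 and 0 below, with a median of 5.5. The collagens Col1a1, Col1a2 and Col3a1 averaged 11.8, 10.9 and 9.03 CPM in reduced KSOM, without overlap. In depleted KSOM they averaged 0.235, 0.264 and 0.237 CPM, and in E4.5 0.872, 0.572 and 0.182 CPM. Of 13 called muscle and blood genes, Eno3 included, S100a8 kept its call without any 1 library, and the others reached adjusted p values of up to 0.195. With length offsets C1qb, Lcn2, Lyz2, Ngp and S100a9 did not pass.

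Transcript length went with the calls. Length here is a value deduced for each gene from the deposited counts and FPKM, not an annotated mRNA length. It ran from 63.21 to 141300 bases and need not match the length of the mRNA. Relative to the mean of all libraries, abundance correlated with length across genes at −0.18, −0.07 and −0.15 in reduced KSOM and at 0.24 and 0.16 in depleted KSOM (Spearman's rho across genes, which are not independent). With the genes split by length into 4 groups of 5452, 305 of the shortest were called higher and 17 lower, and 79 of the longest were called higher and 226 lower. With offsets that take up this trend, 891 genes were called, 427 higher and 464 lower, 790 of them also called without offsets, and all 1263 genes kept their direction. What part length has in the differences was not tested beyond this.

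**Figure D5:**
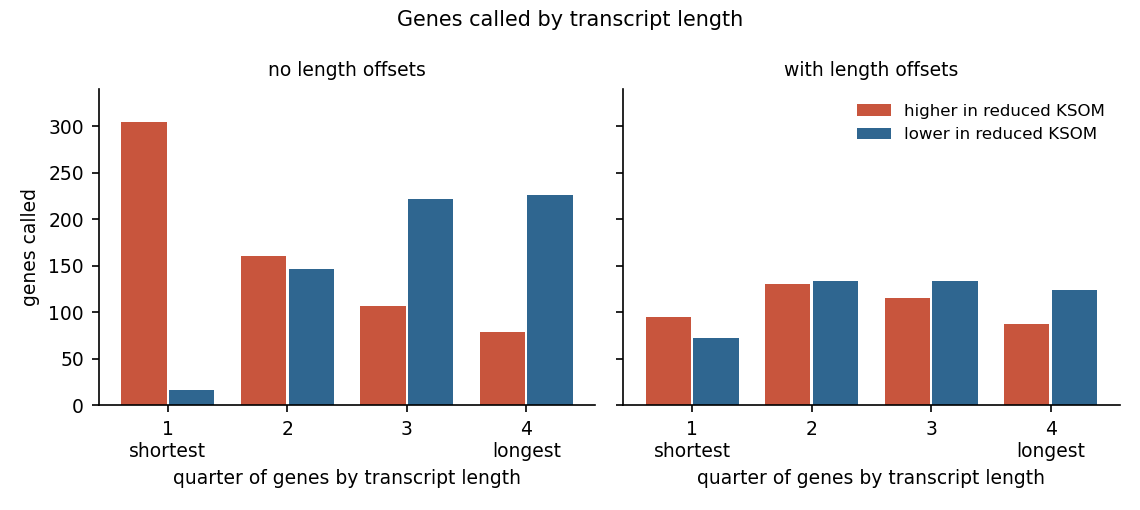
Number of genes called higher (left bars) and lower (right bars) in reduced KSOM in 4 groups of genes by length, without offsets (left panel) and with offsets per library for length (right panel). Length was deduced from the deposited counts and FPKM. Without offsets 305 higher and 17 lower genes fall in the shortest group, and with offsets 95 and 72.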

How the data were processed

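RNA of whole blastocysts was amplified with SMART-Seq v4, a full-length kit, and fragmented, per the labels' protocols, which mention no molecular identifiers. Per the submitters' processing notes, cutadapt 1.9, HISAT2 2.0.4, StringTie 1.3.4d and genome build GRCm38 were used. The authors deposited expected counts (estimated counts that need not be whole) and FPKM values per gene for 13 libraries, and the counting tool and annotation are not given in the sources used here. Expected counts were rounded to whole numbers. Between 27.2% and 34.6% of low counts in a library were multiples of 4.

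Of 31528 genes, 21808 passed edgeR's filterByExpr. edgeR 4.0.16 (quasi-likelihood, TMM scaling, 7 residual degrees of freedom, Benjamini-Hochberg threshold 0.05) was fitted to all 13 libraries in R 4.3.3, with a common coefficient of variation of 0.896. CPM are on the TMM scale unless given as a share of the library total, and DESeq2 1.42.0 and limma 3.58.1 on log2(FPKM + 1) were alternatives. Data were simulated from the fitted spread, without a length trend or tissue transcripts that differ between groups, and changes were planted in genes averaging at least 5 CPM. On these data the fit recovered 14%, 62%, 94% and 100% of genes changed 3, 6, 12 and 24-fold, with 6 false calls among 20797 genes. The 6 are therefore no error rate for the real libraries. Named genes had the largest changes in each direction, up to 12 each, also among genes with at least 5 CPM in both E4.5 libraries. They had a mean log2 CPM of at least 4 and groups that do not overlap. Up to 4 called members of each of 42 lists (1224 genes, 1190 tested), or the one nearest to passing, and a set list of nutrient, growth and lineage genes were added. Members and lists were chosen with earlier results of these data known. Same-numbered libraries of the 2 groups did not deviate together (correlations −0.034 and −0.038). With 2 depleted KSOM libraries these values mirror those of the crossed pairs (0.034 and 0.038), so they cannot decide whether libraries shared a batch. The fit treated the libraries as unpaired. Promoter windows came from RefSeq. The counts carry counting error and amplification error that cannot be separated. A few genes that the counts include are not described individually.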

Additional observations from a re-analysis of the deposited data

Results flagged for a closer look

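A library outside the comparison, OVX replicate 1, carried the same tissue transcripts as the reduced KSOM libraries. Its skeletal muscle genes summed to 1530 CPM of the library total, its neutrophil genes to 654 CPM and its macrophage and lymphoid genes to 410 CPM. The depleted KSOM libraries held 159 and 191, 9.22 and 6.99, and 5.55 and 4.25 CPM of these, and the E4.5 libraries 341 and 190, 2.18 and 1.35, and 7.48 and 6.25 CPM. Mylpf made up most of the muscle sums in depleted KSOM and E4.5. The part of these transcripts in the differences was not tested.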

How the results depend on the processing

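The counts depended on the setting. DESeq2 called 3578 genes (2395 higher, 1183 lower), limma on log2(FPKM + 1) 1994 (963 and 1031), no low-count filter 2652 (1587 and 1065), and the filter on E4.5 genes 1830 (1001 and 829). A fit of the 5 libraries alone, with 3 residual degrees of freedom, called 4455 (2406 and 2049), and length offsets 891 (427 and 464). Library totals gave 38.7% of calls as higher, against 51.6% in the fit reported and 66.9% in DESeq2. With the replicate block, which pairs libraries by their number, 479 genes were called (271 and 208). Leaving out 1 library gave 121 to 225 calls (58 to 107 higher, 63 to 136 lower), and the lone depleted KSOM library was then assumed to vary like the other groups. Of 150 called genes examined singly, 131 kept their call with size factors, 140 with library totals, 108 with length offsets and 78 with the replicate block, all with the same sign.

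The term for libraries with muscle transcripts left 0 calls in either direction, 0 higher and 0 lower. List medians with it were −0.23 for respiratory chain genes, 0.66 for LIF and FGF, 0.52 for trophectoderm, 0.0021 for junctions, 0.057 for sterol synthesis, 0.14 for amino acid transporters, −0.093 for branched-chain, arginine and lysine breakdown, −0.17 for G2/M, 0.23 for quiescence, 0.43 for ion and water transport, −1.79 for neutrophil and −0.47 for macrophage genes. Log2 fold changes turned to −1.37 for Apoa1, −3.42 for C1qb, −8.02 for Chac1, −2.18 for Ddit4, 0.56 for Gata6, −0.83 for Hk2, −1.79 for Lcn2, 0.95 for Ldhb, −0.24 for Mki67, 2.86 for Myc, 0.71 for Mycn, −1.13 for Mylpf, 0.79 for Nanog, −7.73 for Ngp, −10.01 for Pdk4, −0.45 for Pfkfb3, 0.26 for Pou5f1, −3.74 for Retnlg, 1.68 for Sesn2, 0.82 for Slc2a1, −0.36 for Slc7a1, −1.54 for Slc7a11, 1.0 for Slc7a3, 4.12 for Sox17 and 0.25 for Sox2. Elsewhere the median of glycolysis turned to −0.17 with library totals and −0.14 with limma, and that of LIF and FGF to 0.0078 with size factors and DESeq2 and 0.16 with length offsets. Gata6 turned to 0.080 with length offsets and 0.13 with the E4.5 filter added, an alternative chosen after seeing the data. Slc7a1 turned to −0.14 with library totals and −0.10 with limma, and with the replicate block Pou5f1 turned to 0.045 and Sox17 to 0.15. With 1 library left out the value crossed 0 for 5 genes that did not pass, with ranges of −0.41 to 0.12 for Gata6, −0.55 to 0.26 for Pou5f1, −0.98 to 0.49 for Sesn2, −0.0012 to 0.52 for Slc7a1 and −0.71 to 0.075 for Sox17. The cause was not tested.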

Other observations

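Gene families chosen after their values were seen add to the lists, where 2.99% of all genes tested were higher and 2.8% lower, and 6.14% and 6.44% of those expressed in E4.5. Of 22 genes of the Sm and Lsm rings, which form the cores of splicing particles and of mRNA decay complexes, 7 were higher and 0 lower. Lsm7 averaged 524 CPM in reduced KSOM and 85.2 CPM in depleted KSOM, Snrpg 895 and 178 CPM, and Snrpd2, Snrpd1, Snrpd3, Snrpe and Lsm6 were the others. With length offsets 5 were called higher. Of 33 Vps genes of endosomal sorting 6 were lower and 0 higher, among them Vps35 and Vps26a of the retromer, at 131 and 121 CPM in reduced KSOM, against 319 and 342 CPM in depleted KSOM. With length offsets 3 were called lower. Of 57 Rab GTPases 5 were lower (Rab5a, Rab6a, Rab7, Rab12 and Rab25) and 0 higher, and 4 were lower with length offsets, a share near that of E4.5-expressed genes.

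Of the genes called higher, 79 had 0 counts in both depleted KSOM libraries, and 11 of these had at least 5 CPM in both E4.5 libraries. Against a floor of 3 counts per library, the meiotic cohesin gene Smc1b was at least 522-fold higher.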
